A study of Mus musculus with 9 samples.

Results

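The cytosolic ribosome is built from ribosomal RNA and from ribosomal proteins of a large (60S) and a small (40S) subunit. The genes of these proteins were examined in mouse oocytes at metaphase II, the stage at which the mature egg waits for fertilisation. Members were the rows whose symbol begins with Rpl or Rps and a number, together with Rpsa, Rplp0, Rplp1 and Rplp2. S6 kinase genes (Rps6k), Rps19bp1 and every symbol containing -ps, the mark of a named pseudogene, were left out. This gave 87 of 22526 genes, 51 of the large and 36 of the small subunit. The annotation lists 82 of them as protein coding and 5 as pseudogenes whose symbols lack that mark (Rpl37rt, Rps4l, Rps3a2, Rps3a3 and Rpl6l).

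All 9 libraries were of ICR mice, an outbred strain, and of oocytes at metaphase II. The groups were young (3 libraries), aged (3 libraries) and NMN (3 libraries), the last named for supplementation with nicotinamide mononucleotide, a precursor of NAD+. The labels used here give no age in weeks or months for any group, no age class for the NMN mice, no dose, and no number of mice or oocytes behind a library. Nothing states that libraries of a group came from separate mice, so the p-values reflect the spread among these libraries alone.

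Ribosomal protein mRNAs are the best known members of the TOP class, whose transcripts begin with a C followed by a run of pyrimidines (a 5′ terminal oligopyrimidine tract). Through that tract the mTOR pathway and the RNA-binding protein LARP1 control their translation and storage. An oocyte makes its ribosomes while it grows, falls silent in transcription before it matures, and then lives on stored mRNA, much of which loses its poly(A) tail during meiotic maturation. Mammalian ribosomal protein genes also have very many retrotransposed copies in the genome, which makes their reads hard to place.

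The annotated starts of 10 members are shown to let the tract be seen in genes of high and of low level. They were picked by hand, and the letters marked below are more frequent in them than over all members. Each line is 15 bases before and 15 bases from the RefSeq start on build GRCm38.p6, read 5′ to 3′ on the gene's strand, with the letters CTTTC in capitals.
Rps27l: ccactcctccccgccgcctctatcccggaa
Rpl15: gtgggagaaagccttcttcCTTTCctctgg
Rps2: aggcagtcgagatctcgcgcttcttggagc
Rplp2: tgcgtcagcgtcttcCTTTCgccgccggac
Rps15a: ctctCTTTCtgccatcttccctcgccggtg
Rps6: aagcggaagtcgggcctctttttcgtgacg
Rpl7l1: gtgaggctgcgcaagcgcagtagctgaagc
Rps27: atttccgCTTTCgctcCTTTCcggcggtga
Rpl35: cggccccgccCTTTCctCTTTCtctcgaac
Rpl28: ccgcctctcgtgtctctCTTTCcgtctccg
The windows lie at chr9:66946071-66946100 (Rps27l, plus strand), chr14:18270972-18271001 (Rpl15, minus), chr17:24720048-24720077 (Rps2, plus), chr7:141447636-141447665 (Rplp2, plus), chr7:118116133-118116162 (Rps15a, minus), chr4:86857353-86857382 (Rps6, minus), chr17:46782642-46782671 (Rpl7l1, minus), chr3:90213634-90213663 (Rps27, minus), chr2:39005117-39005146 (Rpl35, minus) and chr7:4792950-4792979 (Rpl28, plus). The Rps27l line is 1 of the starts listed for that gene.

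Within 20 bases on either side of the start, CTTTC was found on the gene's strand at 20 of the 63 members with a listed start (31.7%), against 1741 of 27025 genes in all (6.4%). The reverse complement, GAAAG, was found at 3 members (4.8%) and at 5.7% of all genes. By level, the letters were found at 3 of 9 members with a mean of at least 10 FPKM (33.3%), 5 of 20 with a mean of 1 to 10 FPKM (25.0%) and 12 of 34 below 1 FPKM (35.3%). Here FPKM is a level in sequenced fragments, corrected for the length of the transcript and the size of the library. A match is only a string of letters near an annotated start, and the absence of a match says only that these letters are not in that window.

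The level of ribosomal protein mRNA was uneven between members. Most ribosomal proteins enter the ribosome in about equal number, but the 87 rows also hold 5 listed pseudogenes and several paralogues, which are related copies of a gene. A mean of at least 100 FPKM was reached by 2 members and of at least 10 FPKM by 13, another 24 lay between 1 and 10 FPKM, and 50 of the 87 had a mean below 1 FPKM. The deposited data listed 31 members at 0 in at least 1 library and 13 in at least 5 libraries. Summed over the 87 members, ribosomal protein genes took 0.21% to 0.487% of the FPKM of a library. Depth was alike, at 16.28 M to 19.25 M reads per library as read from the spacing of low values, and 15762 to 16940 genes were above 0. All 15 oocyte marker genes, Gdf9, Bmp15, Zp3 and Mos among them, were above 0 in every library.

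Rps27l (ENSMUSG00000036781), a small-subunit paralogue of Rps27 known as a target of p53, was the most abundant member. It was at 271, 176 and 129 FPKM in young replicates 1, 2 and 3, at 199.7, 518 and 154 in the aged and at 358, 171 and 197 in the NMN replicates, an order kept for all values given below. Its partner Rps27 (ENSMUSG00000090733) was listed at 0 in 6 of 9 libraries and reached 1.59 FPKM in aged replicate 2 and at most 0.111 elsewhere. At the annotated length of Rps27, 3 reads would be about 0.462 FPKM. The coding sequences of Rps27l and Rps27 are 76.2% identical over 252 bases, and of the 50-base words in their transcripts 83.8% and 53.8% occur in no other annotated gene.

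Rpl17, which lines the exit tunnel of the large subunit, was at 173, 156 and 149 FPKM in the young, 137, 185 and 106 in the aged and 217, 105 and 184 in the NMN libraries. Rpl4, which reaches into the same tunnel, was the steadiest of the abundant members, at 51.1, 54.8 and 54.0, then 49.2, 58.9 and 46.5, then 59.4, 52.4 and 53.8 FPKM. Rplp0, the base of the stalk, was at 45.1, 43.1 and 40.0, then 38.1, 56.8 and 34.7, then 51.2, 39.9 and 47.5 FPKM. In these 3 genes the groups overlapped. Rps3a1, a protein near the exit of the mRNA channel, and Rpl15, a protein of the large subunit core, had means of 37.3 and 25.8 FPKM over 9 libraries, again with overlapping groups.

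**Figure D1:**
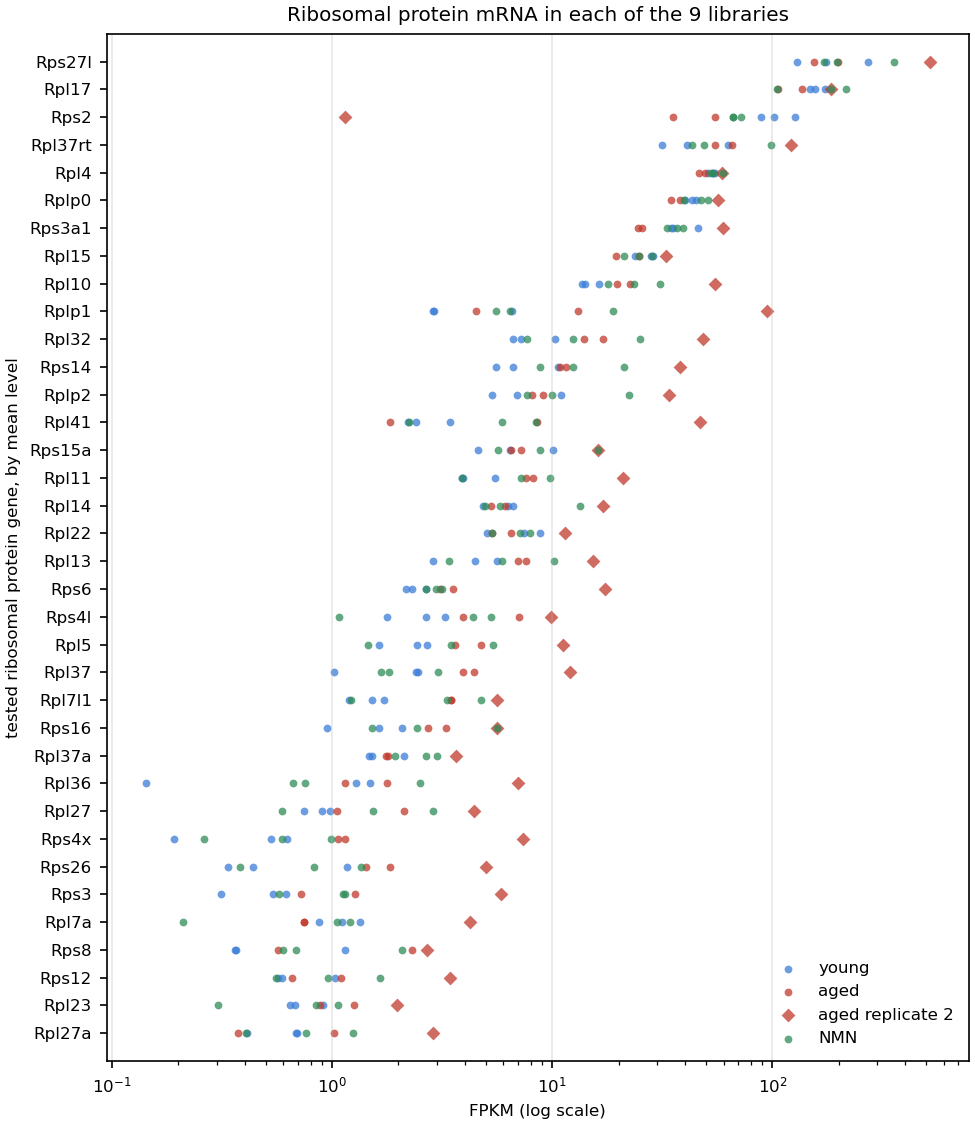
Level of the 36 tested ribosomal protein genes in each library, on a log scale of FPKM, ordered by mean over 9 libraries. Each point is 1 library and the diamonds are aged replicate 2, which lay at the right end of the row in 32 of the 36 genes and at the left end, at 1.14 FPKM, in Rps2.

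Shares of unique 50-base words were not ordered with level. They had a median of 68.3% among members below 1 FPKM, 57.8% from 1 to 10 FPKM and 65.5% at 10 FPKM and above. Of 9 members with at least 90% unique words, 5 had a mean below 1 FPKM. A word was shared with at least 1 annotated pseudogene in 85 of the 87 members. The length of the authors' reads is not given in the sources used here, so 50 bases is a choice.

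The other pairs of paralogues were unequal as well. Rpl10, placed near the catalytic centre late in assembly of the large subunit, had a mean of 23.7 FPKM, and its testis paralogue Rpl10l was above 0 in young replicate 3 alone. Rpl22 had a mean of 7.22 FPKM, and Rpl22l1 was above 0 in aged replicate 2 alone. Rps4l, listed as a pseudogene, had a mean of 4.35 FPKM against 1.42 for the X-linked Rps4x, of which it is a 79.9% identical copy. Rpl7l1, related to Rpl7 and known for a part in ribosome assembly, had a mean of 2.92 FPKM against 0.144 for Rpl7. Rpl39l had a mean of 0.433 FPKM against 0.0374 for Rpl39, a protein of the exit tunnel. Rpl3 and Rpl36a had means of 0.0451 and 0.18 FPKM, and their paralogues Rpl3l and Rpl36al were not analysed here.

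Aged replicate 2 stood apart from the other 8 libraries. The 87 members summed to 929, 714 and 653 FPKM in the young libraries, 725, 1603 and 649 in the aged and 1165, 635 and 813 in the NMN libraries. The sum in aged replicate 2 was above all others, while aged replicates 1 and 3 lay within or just below the young range. The sum averaged 765 ± 145 FPKM over young, 992 ± 530.1 over aged and 871 ± 269 over NMN libraries (mean ± SD, n = 3 each), so the aged mean differed from the others by less than the SD of the aged group. Members at 1 FPKM or more numbered 26 to 31 in the young libraries, 31, 51 and 36 in the aged and 26 to 38 in the NMN libraries.

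**Figure D2:**
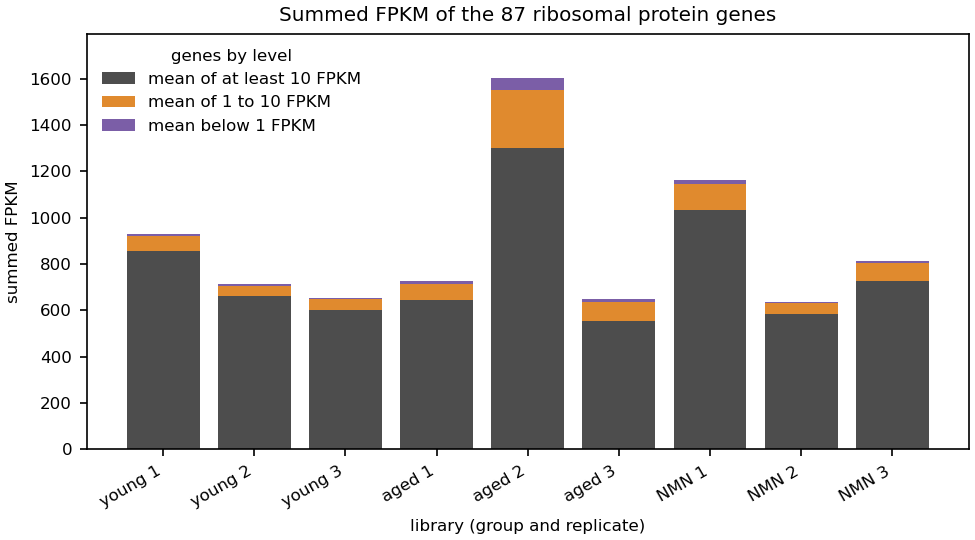
Summed FPKM of the 87 genes in each library, split by the gene's mean level over 9 libraries. The bar of aged replicate 2 reaches 1603 FPKM against 635 to 1165 in the other 8 libraries, and genes with a mean of at least 10 FPKM make up most of each bar.

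Of the 36 members tested, 32 (88.9%) were highest in aged replicate 2, against 27.1% of all 9168 genes tested. The exceptions were Rpl17, Rpl4, Rps16 and Rps2. Within the aged group this library was the highest for 35 of 36 members (97.2%, against 47.7% of all genes). Members moved together in other libraries too. Young replicate 1 was the highest young library for 29 of 36 (80.6%, against 41.9% of all genes), NMN replicate 1 was the highest NMN library for 29 of 36 (against 40.6%), and NMN replicate 2 was the lowest NMN library for 33 of 36 (91.7%, against 40.4%). Libraries given the same label thus differed from each other in the same direction across most tested members.

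Among the tested members, those with the highest ratio of aged replicate 2 to the next library came from both subunits. Rplp1, which pairs with Rplp2 on the stalk to recruit elongation factors, was at 94.2 FPKM there and at 2.88 to 18.9 FPKM in the other 8 libraries. Rpl41, the smallest ribosomal protein, was at 47.1 against 1.83 to 8.48 FPKM. Rps4x was at 7.38 against 0.191 to 1.14 FPKM. Rps6, the substrate of the S6 kinases, was at 17.4 against 2.18 to 3.53 FPKM, and Rps3, at the entry of the mRNA channel, was at 5.85 against 0.313 to 1.27 FPKM. In these 5 genes the ratio to the next library was 6.47 for Rps4x, 5.55 for Rpl41, 4.97 for Rplp1, 4.92 for Rps6 and 4.60 for Rps3. Among the 51 members not tested, 40 were also highest in aged replicate 2, and 15 reached 1 FPKM there. No share over all genes not tested was taken for these counts.

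Other signals moved with this library. The 20 marker genes of cumulus and granulosa cells, the somatic cells around the oocyte, had 18 rows, which summed to 32.0 FPKM in aged replicate 2 and to 6.96 to 11.8 FPKM in the others. It had 17 of the 18 above 0, against 8 to 11 elsewhere. Ptx3 (6.37 FPKM), Inha (3.17), Fst (2.31), Tnfaip6 (1.08), Hsd17b1 (0.78) and Foxl2 (0.094) were listed at 0 in all other 8 libraries. Not all of the list was raised in aged replicate 2. Cyp19a1 was lowest there, at 3.03 FPKM against 3.05 to 6.205 elsewhere. Kitl was at 0.759 against 0.579 to 3.25, and Lhcgr was at 0 against up to 0.405. Of 8 blood markers 3 had rows. They summed to 0.41 FPKM in aged replicate 2, mostly Alas2 (0.358), and to at most 0.125 elsewhere. Of 6 sperm markers 2 had rows, with a sum of 2.47 in aged replicate 2, from Prm2 alone, and at most 0.646 elsewhere. Oocyte markers summed to 20345 FPKM in aged replicate 2 and to 12886 to 19811 elsewhere, but genes of this list went different ways. Zp2 was highest there, at 197 FPKM against 29.1 to 83.5 elsewhere. Gdf9 was lowest there, at 2127 against 2421 to 3354, and so was Kit, at 14.016 against 15.53 to 32.136. The part of all these marker signals in the ribosomal protein values was not tested. In bulk libraries of this kind, more cells of a type and more RNA per cell cannot be told apart.

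**Figure D3:**
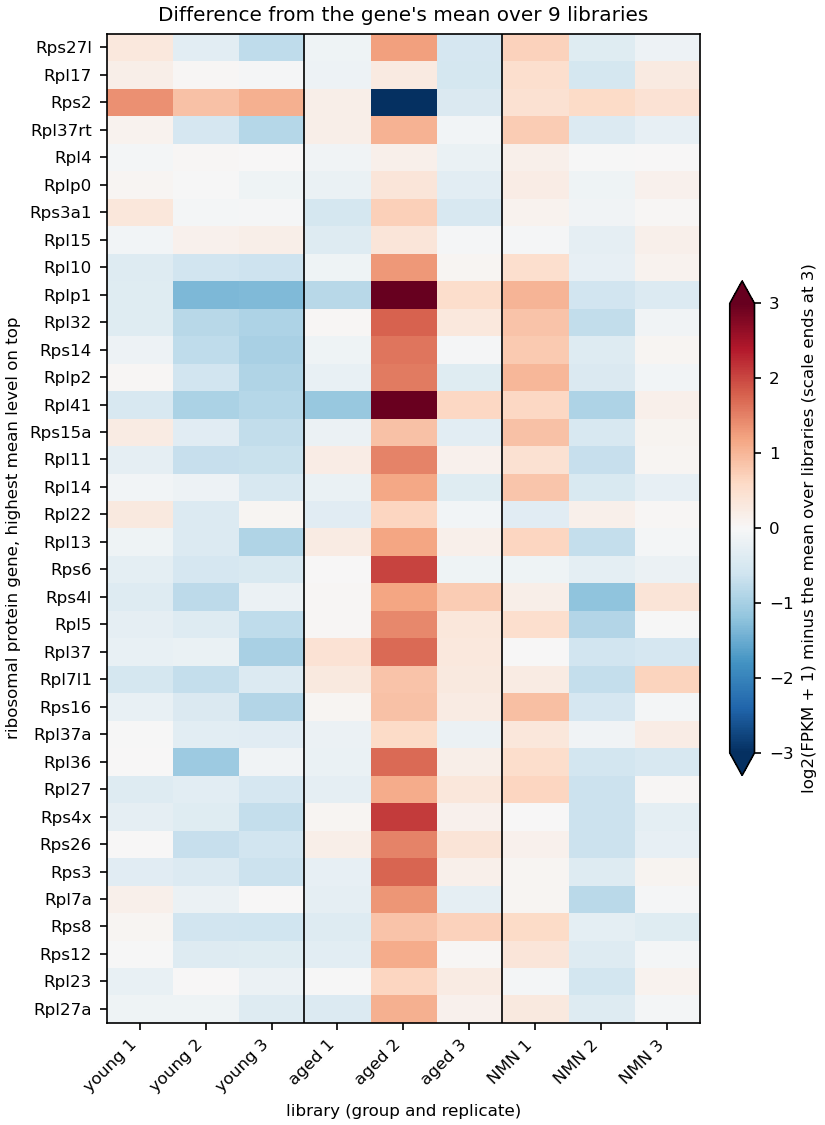
Difference of each library from the gene's mean over 9 libraries, in log2(FPKM + 1), for the 36 tested ribosomal protein genes ordered by level. The column of aged replicate 2 is red in nearly every row and dark blue in the row of Rps2, and differences beyond 3 take the end colour of the scale.

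Aged oocytes were set beside young ones to ask what maternal age does to the stored mRNA. No ribosomal protein gene passed the test: 0 of the 36 tested members had a limma adjusted p under 0.05, against 2.18% of all genes (200 of 9168, of which 116 rose and 84 fell). Under library quality weights 4 of 36 (11.1%) were called, against 9.88% of all genes. Most tested members lay higher in the aged group, 30 of 36, against 44.8% of all genes. Their median log2 change was 0.75, against -0.05 over all genes. At an unadjusted p under 0.05 there were 16 members (15 higher, 1 lower), 44.4%, against 18.3% of all genes. All 3 aged libraries lay above all 3 young ones for 15 members (41.7%, against 12.6% of all genes) and below them for 1, Rps2 (2.78%, against 11.2%). Rps4x is among the 16 and among the 15, and it was tested through its 3 aged libraries alone, where it is high. Without it the counts were 15 of 35 at an unadjusted p under 0.05 (42.9%) and 14 of 35 with the aged libraries above (40.0%). Testing required 1 FPKM in at least 3 libraries, and 11 of the 36 had fewer than 3 young libraries at that level, so these counts describe the tested members and not the 87.

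Rpl37, a zinc-binding protein of the large subunit that joins early in assembly, had the smallest p. It was at 2.41, 2.45 and 1.02 FPKM in the young, 4.39, 11.97 and 3.95 in the aged and 3.02, 1.67 and 1.81 in the NMN libraries. Each aged library lay above every young and every NMN library. The log2 change of aged against young was 1.24 ± 0.34 (SE; limma adjusted p = 0.0991), and 0.86 ± 0.28 without aged replicate 2 (adjusted p = 0.151).

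Rpl11 and Rpl5 form with 5S rRNA a particle that is built into the large subunit and that, when free, binds the p53 regulator Mdm2. Rpl11 was at 5.499, 3.90 and 3.93 FPKM in the young, 8.13, 21 and 7.63 in the aged and 9.81, 3.87 and 7.22 in the NMN libraries. Rpl5 was at 2.70, 2.43 and 1.63, then 3.61, 11.1 and 4.73, then 5.40, 1.45 and 3.46 FPKM. Both were higher in all aged than in all young libraries, and in both the NMN libraries overlapped each of the other groups. Their log2 changes of aged against young were 1.10 ± 0.35 and 1.03 ± 0.37 (limma adjusted p = 0.139 and 0.178). They were 0.73 ± 0.29 and 0.68 ± 0.34 when aged replicate 2 was left out (adjusted p = 0.235 and 0.347).

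Rpl32, a protein of the large subunit surface, was at 10.3, 7.22 and 6.63 FPKM in the young, 13.97, 48.6 and 17.0 in the aged and 25.1, 7.67 and 12.4 in the NMN libraries. Rpl10 was at 16.3, 14.1 and 13.6, then 19.7, 54.6 and 22.7, then 30.9, 17.9 and 23.5 FPKM. Rps26, which touches the mRNA in the exit channel, was at 1.16, 0.335 and 0.437, then 1.42, 5.01 and 1.83, then 1.35, 0.381 and 0.823 FPKM. The aged libraries lay above the young ones in all 3 genes, and in Rpl10 the NMN libraries did too. The log2 changes of aged against young were 1.35 ± 0.435 for Rpl32, 0.89 ± 0.30 for Rpl10 and 1.065 ± 0.33 for Rps26 (limma adjusted p = 0.147, 0.16 and 0.13), and 0.89 ± 0.365, 0.51 ± 0.21 and 0.72 ± 0.28 without aged replicate 2 (adjusted p = 0.253, 0.243 and 0.221).

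Rpl7l1 was at 1.51, 1.19 and 1.71 FPKM in the young, 3.46, 5.59 and 3.48 in the aged and 3.33, 1.21 and 4.76 in the NMN libraries. Its log2 change of 0.999 ± 0.30 (limma adjusted p = 0.13) was nearly as large without aged replicate 2, at 0.87 ± 0.33 (adjusted p = 0.213). Without NMN replicate 2, a library of neither group compared, it was 1.0 ± 0.21 and reached an adjusted p of 0.0498. In that fit 1 of 36 members was called, and 173 of 9080 genes in all. Rps4l was at 2.66, 1.77 and 3.25, then 3.92, 9.84 and 7.07, then 4.35, 1.08 and 5.26 FPKM, with a log2 change of 1.05 ± 0.39 (limma adjusted p = 0.192), and 0.85 ± 0.42 without aged replicate 2 (adjusted p = 0.345). In both paralogues each aged library lay above each young one, while the NMN libraries spread over both groups.

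The stalk genes were not equally far above the other libraries in aged replicate 2. Rplp1 was at 6.59, 2.88 and 2.91 FPKM in the young, 4.51, 94.2 and 13.1 in the aged and 18.9, 5.58 and 6.42 in the NMN libraries. Rplp2 was at 10.9, 6.88 and 5.31, then 9.11, 33.8 and 8.08, then 22.4, 7.67 and 10.01 FPKM. Aged and young libraries overlapped in both. The log2 changes of aged against young were 1.94 ± 0.81 for Rplp1, 0.75 ± 0.48 for Rplp2 and -0.08 ± 0.18 for Rplp0 (limma adjusted p = 0.238, 0.445 and 0.849). Without aged replicate 2 they were 0.87 ± 0.51, 0.20 ± 0.38 and -0.22 ± 0.16 (adjusted p = 0.439, 0.841 and 0.539).

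Rps2 (ENSMUSG00000044533), a small-subunit protein at the entry of the mRNA channel, went the other way. It was at 127, 88.9 and 102 FPKM in the young, 54.7, 1.14 and 35.3 in the aged and 66.2, 71.8 and 65.9 in the NMN libraries. The groups did not overlap: every NMN library lay between the lowest young and the highest aged library. The log2 change of aged against young was -2.74 ± 0.97 (limma adjusted p = 0.172). Without aged replicate 2, at 1.14 FPKM the lowest of the 9, the change was -1.23 ± 0.22 and passed the test (adjusted p = 0.0264). Rps2 was the single member called in that fit, 1 of 33 tested (3.03%, against 2.35% of all genes).

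The row of Rps2 cannot be read without its pseudogenes. Rps2-ps6, Rps2-ps10 and Rps2-ps13 match the coding sequence of Rps2 at 99.2%, 99.4% and 99.2% of aligned bases, and 43.6% of the 50-base words of Rps2 occur in no other annotated gene. A stretch of 60 coding bases is shown because it holds 1 position at which Rps2 differs from both copies printed and 1 at which it differs from Rps2-ps13 alone. Capitals mark, in Rps2, the bases at which either copy differs and, in a copy, the bases at which it differs from Rps2.
Rps2: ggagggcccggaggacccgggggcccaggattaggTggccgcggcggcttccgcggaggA
Rps2-ps6: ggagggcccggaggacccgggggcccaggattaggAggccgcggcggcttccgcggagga
Rps2-ps13: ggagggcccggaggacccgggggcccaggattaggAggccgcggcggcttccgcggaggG
The stretches are from GENCODE M21 transcripts on build GRCm38 and lie at chr17:24720300-24720359 (Rps2, plus strand), chr14:76237462-76237521 (Rps2-ps6, minus) and chrX:52898612-52898671 (Rps2-ps13, plus).

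Rps2-ps6 was at 16.3, 10.3 and 14.97 FPKM in the young, 4.85, 0.092 and 1.89 in the aged and 5.36, 7.71 and 8.08 in the NMN libraries. It fell in aged against young by 2.48 on the log2 scale (SE 0.50, limma adjusted p = 0.0377), and it fell by 1.82 without aged replicate 2 (SE 0.33, adjusted p = 0.0255). Rps2-ps13 was at 7.12, 4.37 and 4.06, then 1.11, 29.1 and 17.6, then 29.2, 4.85 and 23.9 FPKM. Rps2-ps10 was at 0.417 to 1.74 FPKM in the young, 0.12 to 0.891 in the aged and 42.6, 35.9 and 1.13 in the NMN libraries. In ratio of highest to lowest library, each copy varied more than Rps2 within the young and within the NMN group, and aged replicate 2, lowest in Rps2 and in Rps2-ps6, was among the highest in Rps2-ps13.

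Rps2 and its -ps rows were also summed, a sum chosen after the values were seen and not tested. It was 152, 104 and 122 FPKM in the young, 60.8, 31.2 and 55.4 in the aged and 143, 120.2 and 99.0 in the NMN libraries. The 3 aged libraries lay below the 6 others, and the young and NMN libraries overlapped. In Rps2 alone the NMN libraries had lain below all young ones.

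**Figure D4:**
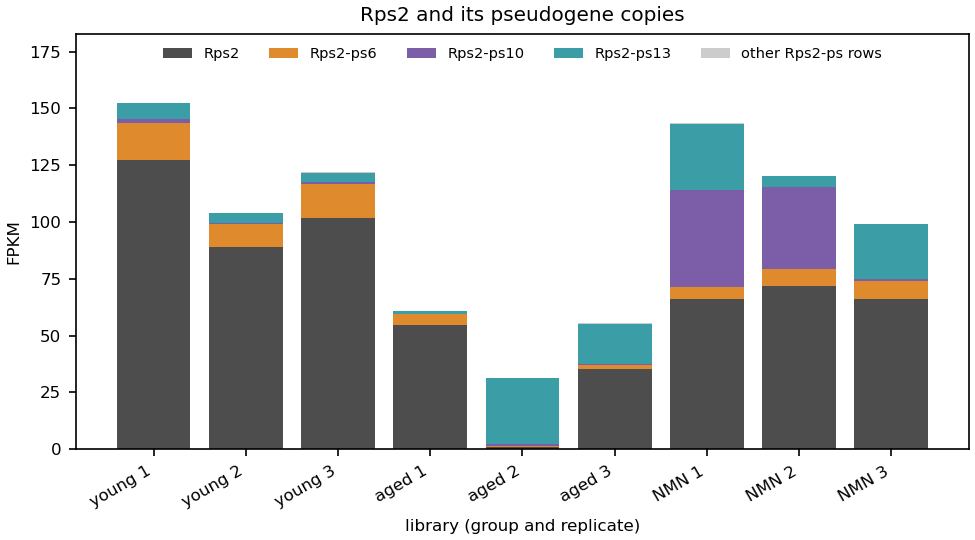
FPKM of Rps2 and of its pseudogene rows, stacked for each library. The stack reaches 31.2 to 60.8 FPKM in the aged libraries and 99.0 to 152 FPKM in the other 6, and the share of the copies in the stack varies between libraries.

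Rpl37 has a like copy. Rpl37rt, listed as a transcribed processed pseudogene, differs from the coding sequence of Rpl37 at 1 of 291 bases, shown in capitals.
Rpl37: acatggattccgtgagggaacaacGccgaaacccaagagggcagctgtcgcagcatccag
Rpl37rt: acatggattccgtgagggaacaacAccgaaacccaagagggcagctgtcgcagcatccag
The stretches lie at chr15:5118567-5118626 (Rpl37, plus strand) and chr5:115103238-115103297 (Rpl37rt, minus) of GRCm38, from the same transcripts. Rpl37rt was at 62.6, 40.8 and 31.6 FPKM in the young, 65.4, 121 and 54.6 in the aged and 98.6, 43.2 and 49.0 in the NMN libraries. It was far above Rpl37 in all 9 libraries, and its groups overlapped where those of Rpl37 did not. Its log2 change of aged against young was 0.73 ± 0.35 (limma adjusted p = 0.3). How the authors' counting shared reads between such copies is not given in the sources used here, so the split between a member and its copy is uncertain.

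Without aged replicate 2 the median log2 change of aged against young over the 33 members then tested was 0.42, against -0.02 over all genes. Both remaining aged libraries lay above all young ones for 14 of the 33 (42.4%, against 18.5% of the 8953 genes tested in that fit) and below them for 6 (18.2%, against 19.4%). The 14 were Rpl5, Rpl10, Rpl11, Rpl13, Rpl27, Rpl32, Rpl37, Rpl7l1, Rps3, Rps4l, Rps6, Rps14, Rps16 and Rps26. The 6 were Rpl4, Rpl7a, Rpl17, Rplp0, Rps2 and Rps3a1.

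Sums were also taken by class of level, with classes set on the mean over 9 libraries, aged replicate 2 included. Members with a mean of at least 10 FPKM summed to 603 to 855 FPKM in the young libraries and to 646, 1303 and 554 in the aged. Members with a mean of 1 to 10 FPKM summed to 44.1 to 66.0 in the young and to 68.5, 251 and 82.7 in the aged libraries, and members below 1 FPKM to 5.24 to 8.01 and to 9.74, 48.7 and 12.4. So the sums of the lower classes were above the young range in all 3 aged libraries. Among aged libraries, that of the abundant class was above it in aged replicate 2 alone. The NMN libraries summed to 1033, 585.5 and 727 in the abundant class. They summed to 115, 44.3 and 76.7 from 1 to 10 FPKM, and to 17.4, 5.51 and 9.41 below 1 FPKM. NMN replicates 1 and 3 were thus also above the young range in the lower classes, and NMN replicate 1 in the abundant class. Over the 87 members, the aged mean was above the young mean for 76, and for 59 with aged replicates 1 and 3 alone. In the fit with no filter, which holds aged replicate 2, 75 of the 87 had a log2 change above 0, against 48.6% of all 22526 genes. No such share was taken for the 59.

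**Figure D5:**
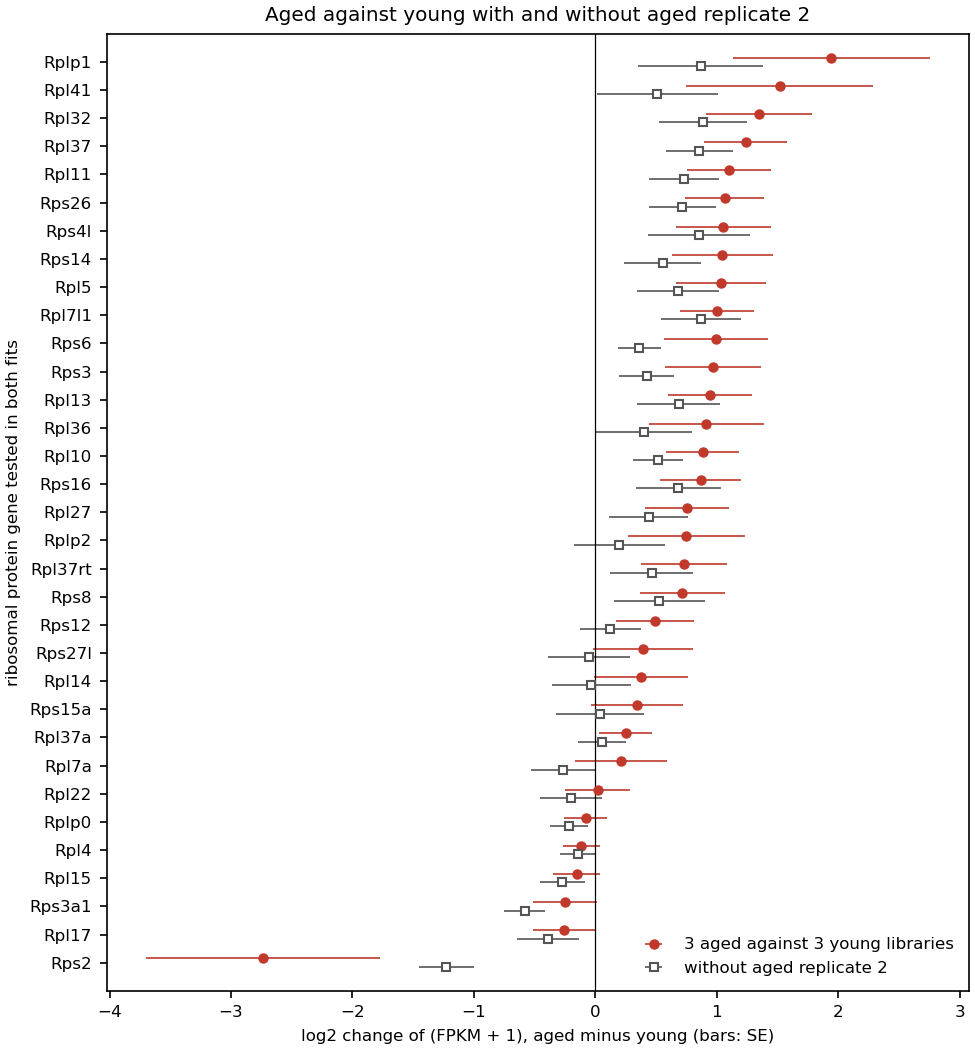
Log2 change of (FPKM + 1), aged minus young, for the 33 ribosomal protein genes tested with and without aged replicate 2, with bars of 1 SE. Open squares, without that library, lie closer to 0 than the filled points in most rows, with Rps2 at -2.74 and -1.23.

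NMN libraries were set beside aged ones to ask what supplementation changed. No ribosomal protein gene passed the test: 0 of 36 members had a limma adjusted p under 0.05, against 0.218% of all genes (20 of 9168, of which 11 rose and 9 fell). The NMN group was the lower one for 29 of 36 members and the higher one for 7, while 53.2% of all genes were above 0. The median log2 change of the members was -0.355, against 0.03 over all genes. Without aged replicate 2 the median turned to 0.07, with 17 of 33 members above 0, against 49.1% of all genes. This comparison shares its aged libraries with that of aged against young, so opposite signs in the pair of comparisons are not independent of each other.

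At an unadjusted p under 0.05 there were 3 members, Rpl37, Rps26 and Rps4x, all lower with NMN (8.33%, against 11.3% of all genes). The same 3 had every NMN library below every aged one (8.33%, against 6.51%), and Rps2 had every NMN library above (2.78%, against 9.09%). Rps4x was tested through its aged libraries alone, and without it 2 of 35 members (5.71%) remained in each of these counts of lower members, a share below that of all genes. In the fit without aged replicate 2, every NMN library lay below both aged ones for 2 of 33 members, Rpl37 and Rps26 (6.06%, against 14.3% of 8953 genes), and above them for 5, Rpl4, Rpl37a, Rplp0, Rps2 and Rps3a1 (15.2%, against 21.4%).

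The log2 change of NMN against aged was -1.16 ± 0.34 for Rpl37 (limma adjusted p = 0.242), -0.92 ± 0.33 for Rps26 (0.343) and -1.05 ± 0.435 for Rps4x (0.408). Without aged replicate 2 it was -0.78 ± 0.28 for Rpl37 and -0.57 ± 0.28 for Rps26 (adjusted p = 0.24 and 0.359), and Rps4x was no longer tested, since it passed the filter through the aged group alone. For Rps2 the change was 2.06 ± 0.97 (limma adjusted p = 0.462), and 0.55 ± 0.22 without that library (0.29). Rps4l and Rpl23, a protein of the face between the subunits, had changes of -0.87 ± 0.39 and -0.44 ± 0.23 (limma adjusted p = 0.443 and 0.496).

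NMN libraries beside young ones gave 0 of 36 members with a limma adjusted p under 0.05, against 0.0764% of all genes (7 of 9168, of which 6 rose and 1 fell). The median log2 change over the tested members was 0.24, against -0.00 over all genes, and 28 of 36 were above 0, against 49.8% of all genes. Without NMN replicate 1 that median was 0.04, with 21 members above 0 and 14 below, against 50.3% of all genes above 0. Without NMN replicate 2 the median over the members was 0.44. No member had an unadjusted p under 0.05 (0 of 36, against 8.13% of all genes). Every NMN library lay above every young one for Rpl10 alone (2.78%, against 9.58%) and below for Rps2 alone (2.78%, against 6.99%). With the replicate number as a block, 0 members and 0 of all genes passed. That block was shared by all 9 libraries, the aged ones included, whose numbers do not pair with the others. It was therefore not a paired fit of the NMN and young libraries alone.

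The smallest p values belonged to Rpl10, Rpl7l1, Rps16 and Rps14 (both of the small subunit), Rpl37a and Rpl32. Rps16 was at 2.08, 1.64 and 0.944 FPKM in the young, 2.74, 5.63 and 3.27 in the aged and 5.64, 1.52 and 2.44 in the NMN libraries. Rps14 was at 10.6, 6.61 and 5.55, then 10.8, 37.9 and 11.5, then 21.1, 8.78 and 12.4 FPKM. In both, NMN replicate 1 was above all young libraries and NMN replicate 2 was within their range. The log2 change of NMN against young was 0.60 ± 0.30 for Rpl10 and 0.59 ± 0.30 for Rpl7l1 (limma adjusted p = 0.645 and 0.663), and those of the other 4 lay between 0.34 and 0.72.

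Among the pseudogene rows within the 87, Rps3a2 and Rps3a3 were higher in NMN replicates 1 and 3 than in all other libraries. Rps3a2 was at 0.145 to 0.262 FPKM in the young, 0.0729 to 0.31 in the aged and 8.26, 0.338 and 4.20 in the NMN libraries, and Rps3a3 reached 3.22 and 0.989 FPKM in NMN replicates 1 and 3. These are copies of Rps3a1 at 99.5% and 99.0% identity. The 3 rows together, summed after their values were seen, came to 46.3, 34.7 and 35.7, then 24.8, 60 and 25.8, then 50.7, 33.8 and 42.0 FPKM. Neither gene passed the filter, and both are named here for values seen in the data.

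Genes that share the control or the making of ribosomes showed 0 calls in all 3 comparisons. Over all genes the shares called were 2.18% in aged against young, 0.218% in NMN against aged and 0.0764% in NMN against young. Of 21 other TOP mRNAs, such as translation elongation factors, 16 were tested, with a median log2 change of 0.23 in aged against young, -0.02 in NMN against aged, and 0.14 between NMN and young libraries. With aged replicate 2 left out, 15 were tested and the first 2 of these medians changed sign, to -0.12 and 0.14. For the 13 tested of 18 genes of mTOR and TOP control the medians were -0.185, 0.13 and -0.04, and for the 45 tested of 55 ribosome assembly factors 0.02, 0.08 and 0.025. RNA polymerase I genes (6 of 12 tested) and genes of ribosome turnover and rescue (11 of 14 tested) had medians of 0.02 and -0.19 in aged against young. At an unadjusted p under 0.05, aged against young gave 3 of 16 TOP mRNAs, 2 of 13 control genes, 4 of 45 assembly factors, 0 of 6 polymerase genes and 1 of 11 turnover genes, against 18.3% of all genes.

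The mitochondrial ribosome is encoded by other genes and translates the mitochondrial mRNAs. Of its 76 proteins 53 were tested, with medians of 0.26, -0.16 and 0.13 in the same order, and of 0.11, -0.02 and 0.11 over 52 without aged replicate 2. In aged against young 1 of 53 passed, against 2.18% of all genes. It was Mrpl9, which fell by 1.73 on the log2 scale (SE 0.24, limma adjusted p = 0.0077), and 0 passed in the other comparisons. When aged replicate 2 was left out, Mrpl9 (-1.53, adjusted p = 0.0119) and Mrpl35 (1.07, adjusted p = 0.0297) passed among the 52 tested, against 2.35% of all genes. The sum of the 76 was 439 to 529 FPKM in the young, 474, 677 and 468 in the aged and 430.0 to 636 in the NMN libraries, highest in aged replicate 2 as for the cytosolic genes. Of 95 rows of cytosolic ribosomal pseudogenes 14 were tested. Rps2-ps6, in aged against young, was the single row called (1 of 14, against 2.18% of all genes). With aged replicate 2 left out, Rpl17-ps5 was called as well, as higher in aged than in young libraries (log2 change 2.12, limma adjusted p = 0.0365). In that fit 2.35% of all genes were called.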

How the data were processed

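Messenger RNA of 9 libraries was measured by Smart-seq2, which primes on the poly(A) tail, so values count tailed mRNA. The values in the authors' deposited table are FPKM, although its name calls them raw counts: they are fractional and sum to 300369 to 329359 in a library. Bowtie2 2.2.5, RSEM and build mm9 were used, per the submitters' processing notes; their roles and the gene annotation are not given in the sources used here.

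Symbols, lengths and copies came from GENCODE M21 (GRCm38; 99.83% of identifiers matched), starts from RefSeq. FPKM were divided by TMM factors (30% and 5% trims) computed here from the FPKM, and log2(FPKM + 1) was fitted with limma 3.58.1 (R 4.3.3; trend and robust, 3 group means) over the 9168 genes that reached 1 FPKM in 3 or more libraries. P-values were adjusted by Benjamini-Hochberg over all these genes. Fold changes on this scale understate those of low genes. Sequences were read with Biopython 1.88. The fit was tested on simulated data with independent noise for each gene. These held no outlying library and no genes that move together, so that test does not cover such features of the real libraries. FPKM printed per library are as deposited. Where values fell below 20 reads, 96.2% to 97.7% were whole reads within 0.02. No libraries of a group were duplicates (chi-square per degree of freedom 11.6 to 83.4).

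Members, lists and tests were chosen with earlier results of these data known. Genes named are those past a test; the 8 most abundant; the 6 with the smallest p per comparison; the 5 tested members with the highest ratio of aged replicate 2 to the next library; paralogues with partners; stalk genes; Rpl5 and Rpl11. Others are named where counted or where the text says so. Marker and related lists were fixed by hand. Deviations of same-numbered libraries correlated over all genes at 0.497, 0.119 and 0.142 in NMN and young, which pairs them by the rule used (all above 0.1). Over the members they correlated at 0.604, -0.005 and 0.567, and no label ties a number to a mouse. The floor of 3 reads covers counting error only. Alternatives were other scalings, pseudocount, filters, weights, length trend, block, groups fitted and each library left out.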

Additional observations from a re-analysis of the deposited data

How the results depend on the processing

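The count of ribosomal protein genes called stayed at 0 in all 3 comparisons under other scalings, a pseudocount of 0.1, no filter, a minimum of 10 FPKM, a length trend removed and fits of only the 2 groups. In aged against young, library quality weights, which gave aged replicate 2 a weight of 0.206 against 0.588 to 2.25 for the others, called 4 (Rpl11, Rpl32, Rpl37 and Rps26; 11.1%, against 9.88% of all genes). Leaving out 1 library gave 0 to 1 (Rps2 without aged replicate 2, Rpl7l1 without NMN replicate 2). In those fits 210 of 8953 and 173 of 9080 genes were called in all. Members at an unadjusted p under 0.05 went from 16 to 8 without young replicate 3 or aged replicate 2. In NMN against aged those 3 members became 11 without aged replicate 1, 9 without NMN replicate 1, 5 without aged replicate 3 and 1 without NMN replicate 2. In NMN against young the 0 became 7 higher with weights, 3 higher and 1 lower with only the 2 groups, 2 higher and 1 lower without aged replicate 2 or with no filter, and 2 higher without NMN replicate 2. No share over all genes at an unadjusted p under 0.05 was taken under these alternatives. Calls over all genes moved as well, so these changes in count are not results about the members. The median change kept its sign except in NMN against aged without aged replicate 2 (0.07; range -0.65 to 0.07 over libraries left out, lowest without NMN replicate 1). Of 1392 values of named genes under alternatives, 46 changed sign, none of them called, 8 of these in NMN against aged without aged replicate 2.

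Calls over all genes moved more. For aged against young (200) they were 31 with no filter, 97 at 10 FPKM, 906 with weights and 132 with only the 2 groups. They ran from 20 to 210 over libraries left out (43, 20 and 27 without young replicates 1, 2 and 3, 130 and 35 without aged 1 and 3, 110 without NMN 3). For NMN against aged (20) they were 9, 3, 163 and 6 in that order, and 5 to 26 over libraries left out (8 and 5 without aged 1 and 3, 10 and 11 without NMN 1 and 3). For NMN against young (7) they were 0, 1, 73 and 17, 3 with values as deposited (2 higher, 1 lower), and 1 to 14 over libraries left out (1 without each young library, aged 1 or NMN 1, 3 without aged 3, 14 without aged 2). The causes were not tested. With the replicate block, calls were 73, 15 and 0 of all genes and 0 of the members. In aged against young, same-numbered libraries correlated at -0.339, -0.267 and 0.314 and in NMN against aged at -0.372, -0.359 and 0.199, so there the numbers do not pair libraries. The size of change that 3 libraries a group could show was not measured for low members, and 50 members had a mean below 1 FPKM.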
